A study of Mus musculus with 7 samples.

Results

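The sites described here are peaks of the transcription factor Oct4 (gene Pou5f1) in mouse embryonic stem cells (ESCs) that had no Oct1 peak in those cells but carried an Oct1 (gene Pou2f1) peak later, as the cells differentiated towards mesoderm. They were chosen by overlap of at least 1 bp: 371 of the 22817 ESC Oct4 peaks overlapped no ESC Oct1 peak and overlapped an Oct1 peak at day 3 or day 6. Of the 12327 Oct4 peaks without an ESC Oct1 peak, which are called Oct4-only peaks here, the 371 made up 3.01% (95% exact binomial interval 2.72 to 3.33). Over all ESC Oct4 peaks, with or without ESC Oct1, 7.54% had a later Oct1 peak. The choice used the presence or absence of listed peaks, so these counts describe the selection and test nothing. Binding was mapped by ChIP-seq, in which DNA crosslinked to a protein is pulled down with an antibody and sequenced. All 4 libraries came from parental cells, the undeleted line of the study: Oct4 in undifferentiated ESCs, Oct1 in undifferentiated ESCs, Oct1 at day 3 and Oct1 at day 6 of mesodermal differentiation. Differentiating cells received Bmp4 for 2 days and then, for 4 days, Rspo3 and the BMP receptor inhibitor LDN-193189. Each group had 1 library, so no difference between conditions could be set against replicate error, and intervals below cover only the counting of peaks. Peaks are not replicates, and no p-value was computed.

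Oct1 and Oct4 are relatives that bind DNA through a shared kind of domain, the POU domain, and both recognise an eight-letter element known as the octamer. Oct4 is a central factor of pluripotency and is lost as ESCs differentiate, whereas Oct1 is made in most cell types. A site that carries Oct4 in the stem cell and Oct1 later is therefore a place where one family member could follow the other. The title of the series links Oct1 to Smad factors, which transmit TGF-beta and BMP signals, during the choice of mesoderm. The peak lists hold no signal where no peak was called, so an absent ESC Oct1 peak means only that none was listed there.

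Promoter sequences are shown for 7 of the sites, because 15 of the 20 sites with Oct1 at both later times lay within 1 kb of an annotated start. Cul3, Wbp2 and Zbtb22 had the highest day 6 scores among the sites with Oct1 at both later times, and Qrich1 and Hnrnpa2b1 the highest day 3 scores. H4c9 had the highest day 3 score of all 371 sites, and Tgif1 encodes a corepressor of Smad proteins. Each is the run of 250 bases before an annotated start in RefSeq (GRCm38.p6), 5′ to 3′ on the gene's strand. Capitals mark GGGCGG (the SP-factor box), CCAAT (the NFY box) and a palindrome made of TCTCG and its reverse complement, on either strand.
Cul3 (chr1:80340691-80340940, minus strand): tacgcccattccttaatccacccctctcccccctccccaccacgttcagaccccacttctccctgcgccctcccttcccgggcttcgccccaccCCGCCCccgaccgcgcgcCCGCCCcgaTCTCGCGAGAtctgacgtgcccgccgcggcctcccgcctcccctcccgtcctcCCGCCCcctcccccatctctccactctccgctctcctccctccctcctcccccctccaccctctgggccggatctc
Wbp2 (chr11:116086996-116087245, minus strand): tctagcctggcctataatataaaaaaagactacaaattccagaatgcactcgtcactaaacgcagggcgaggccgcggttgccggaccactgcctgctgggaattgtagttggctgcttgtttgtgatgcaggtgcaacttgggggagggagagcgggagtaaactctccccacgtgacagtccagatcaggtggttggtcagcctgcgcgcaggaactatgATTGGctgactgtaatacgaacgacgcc
Zbtb22 (chr17:33915926-33916175, plus strand): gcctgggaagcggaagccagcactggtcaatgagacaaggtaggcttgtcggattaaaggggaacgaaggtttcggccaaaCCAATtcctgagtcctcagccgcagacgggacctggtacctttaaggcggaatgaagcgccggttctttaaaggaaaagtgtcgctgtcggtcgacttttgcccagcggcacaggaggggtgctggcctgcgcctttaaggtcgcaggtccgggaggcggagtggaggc
Qrich1 (chr9:108516837-108517086, plus strand): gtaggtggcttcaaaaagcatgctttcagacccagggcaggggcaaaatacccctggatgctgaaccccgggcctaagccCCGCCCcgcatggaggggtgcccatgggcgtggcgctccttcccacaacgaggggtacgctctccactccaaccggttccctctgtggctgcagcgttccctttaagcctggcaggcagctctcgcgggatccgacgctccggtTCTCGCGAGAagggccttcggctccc
Hnrnpa2b1 (chr6:51469846-51470095, minus strand): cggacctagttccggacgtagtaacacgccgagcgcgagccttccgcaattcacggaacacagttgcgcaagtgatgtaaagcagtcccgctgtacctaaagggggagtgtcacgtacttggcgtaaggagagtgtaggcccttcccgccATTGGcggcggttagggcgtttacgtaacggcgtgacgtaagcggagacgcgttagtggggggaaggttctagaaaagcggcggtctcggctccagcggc
H4c9 (chr13:22041363-22041612, minus strand): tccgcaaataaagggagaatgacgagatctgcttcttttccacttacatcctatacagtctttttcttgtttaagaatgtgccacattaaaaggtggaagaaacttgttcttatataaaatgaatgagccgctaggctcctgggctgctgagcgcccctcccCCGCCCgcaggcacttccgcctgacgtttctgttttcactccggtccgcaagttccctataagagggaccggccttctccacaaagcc
Tgif1 (chr17:70851735-70851984, minus strand): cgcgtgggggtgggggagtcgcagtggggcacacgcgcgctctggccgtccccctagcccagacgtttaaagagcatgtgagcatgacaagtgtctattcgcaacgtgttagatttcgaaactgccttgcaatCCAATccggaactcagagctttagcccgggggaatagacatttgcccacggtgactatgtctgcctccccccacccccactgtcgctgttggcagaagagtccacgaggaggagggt

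The later Oct1 peaks at these sites were mostly weak ones of their lists. The authors gave each peak a score without a unit, which was ranked within its own list. A day 3 peak was present at 178 sites (1.44% of Oct4-only peaks), with a median score of 87 against 194 for the whole day 3 list. Their median percentile was 18.3 (interval 14.7 to 20.3), and 159 of the 178 lay in the lower 50% of the list. A day 6 peak was present at 213 sites (1.73% of Oct4-only peaks), with a median score of 110 against 508 for the whole day 6 list. Here the median percentile was 8.58 (7.02 to 10.2), 185 of 213 lay in the lower 50%, and 120 lay in the lowest 10%. In the highest 10% of their lists lay 2 of the day 3 peaks and 3 of the day 6 peaks. At co-bound sites, where ESCs had peaks of both factors, later Oct1 peaks had median percentiles of 39.4 at day 3 and 14.7 at day 6, so low day 6 ranks occurred there too. At sites with Oct1 alone in ESCs the medians were 57.6 and 74.7.

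Seen from the lists, the sites took 9.45% (7.0 to 12.4) of the lowest 10% of day 3 peaks and 11.2% (8.55 to 14.4) of the next. Their share was 0.410% (0.0497 to 1.47) of the highest 10%. At day 6 the share was 15.4% (13 to 18.2) of the lowest 10%, 4.02% (2.74 to 5.66) of the next and 0.387% (0.0798 to 1.13) of the highest. The share of day 6 peaks over any ESC Oct4 peak also fell, from 54.1% of the lowest 10% to 25.4% of the next and 4.77% of the highest. At day 3 that share was 30.2% of the lowest 10% and 34.3% of the next, was lowest, at 10%, in step 7 of 10 and was 18.4% of the highest 10%. The choice of sites did not use the scores, but it used the lists they come from, so the ranks are given as a description.

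**Figure D1:**
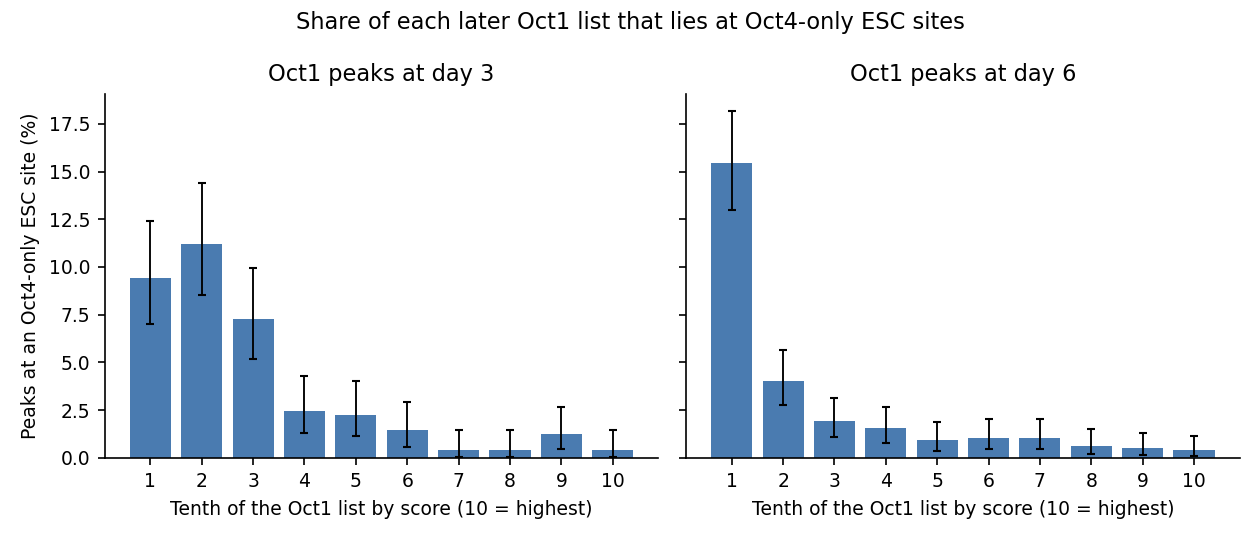
Share of Oct1 peaks at day 3 (left) and day 6 (right) that lay at Oct4-only ESC sites, for 10 equal steps of the list by the authors' score (step 1 holds the lowest scores), with 95% exact binomial intervals. The share is highest among the weakest peaks, at 15.4% for the lowest step at day 6. Above the middle of the lists it is at most 1.44% in any step.

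The sites fell into classes by time. A peak at day 3 only was found at 158 sites (42.6%), at day 6 only at 193 (52.0%), and at both times at 20 (5.39%, 3.32 to 8.20), which is 0.162% of Oct4-only peaks. With only the stronger 50% of the later lists, the share with both was 11.9% of 42 sites. The day 3 peak stood at a median percentile of 17 in the first class, and the day 6 peak at 7.48 in the second. In the class with both, the medians were 48.7 at day 3 and 42.9 at day 6, so these 20 sites held peaks of ordinary strength for their lists. By comparison, of the 10490 ESC Oct4 peaks that did overlap an ESC Oct1 peak, 1350 (12.9%, 12.2 to 13.5) had a later Oct1 peak. Of those, 17.4% had one at both times. These classes come from the overlaps that chose the sites, so the shares are a description.

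**Figure D2:**
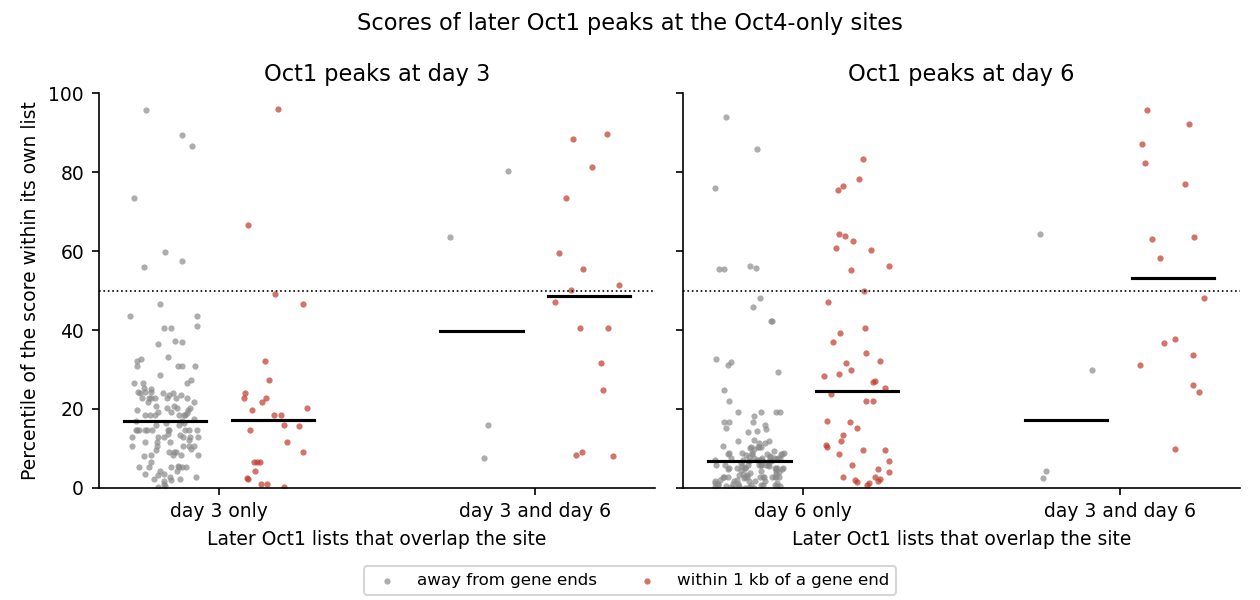
Percentile of each later Oct1 peak within its own list at the 371 sites, at day 3 (left) and day 6 (right), by whether 1 or both later lists overlapped the site. Each point is 1 site, black bars are the medians of each colour, colours mark the distance to the nearest annotated gene end, and the dotted line is the middle of the list. Most points of the single-time classes lie below it.

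A day 3 Oct1 peak at such a site seldom had a day 6 Oct1 peak. This comparison is not fixed by the choice of sites, because every day 3 peak over an Oct4-only peak was included whether or not day 6 followed. A day 6 peak overlapped 20 of the 178 (11.2%, 7.0 to 16.8). For 795 day 3 peaks at co-bound sites the share was 29.2% (26.0 to 32.5), and for 776 at sites with Oct1 alone in ESCs 38% (34.6 to 41.5). For 3116 day 3 peaks in neither ESC list it was 73.7% (72.1 to 75.3). The odds ratios were 0.307 (0.188 to 0.501) against co-bound sites and 0.0451 (0.0282 to 0.0724) against peaks in neither list.

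Position and score moved with this result, so the shares were also taken within strata of both, chosen after the data were seen. Gene-end peaks are those with a midpoint at most 1 kb from the first or last base of a gene. Away from gene ends, 4 of 134 day 3 peaks (2.99%, 0.819 to 7.47) had a day 6 peak, against 17.7% at co-bound sites and 39.4% in neither list. At gene ends it was 16 of 44 (36.4%, 22.4 to 52.2), against 52.5% and 88.0%. Within each of 4 strata of position and score (the lowest 25% of day 3 scores or above), the share stayed below that of peaks in neither ESC list. The odds ratios ran from 0.0426 (0.0101 to 0.181) to 0.194 (0.0719 to 0.523). Against co-bound sites the strata gave different values. The lowest 25% of scores held 129 of the 178 peaks, and there both odds ratios had intervals that included 1. At gene ends in that range, 15.4% of the peaks here had a day 6 peak, against 18.8% at co-bound sites (odds ratio 0.788, 0.217 to 2.86) and 19.4% at sites with ESC Oct1 alone. Away from gene ends it was 1.94%, against 6.39% (odds ratio 0.290, 0.0647 to 1.30) and 0.662%. For gene-end peaks above the lowest 25% of scores, 12 of 18 (66.7%) had a day 6 peak, against 60.0% of 215 (odds ratio 1.33, 0.482 to 3.69). For distal peaks above the lowest 25% it was 2 of 31 (6.45%), against 25.6% of 313 (odds ratio 0.201, 0.0469 to 0.861).

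In the other direction, a day 3 peak was found under 23 of the 213 peaks of day 6 (10.8%, 6.97 to 15.8). The 3 beyond the 20 sites named above touch a day 3 peak outside the Oct4 peak. This share was 30.2% (27.0 to 33.5) at co-bound sites, 74.4% (69.8 to 78.7) at sites with ESC Oct1 alone and 35.9% (34.8 to 37.1) of day 6 peaks in neither ESC list. At gene ends above the lowest 25% of day 6 scores, however, the share was 41.0% (25.6 to 57.9) at these sites and 41.7% (40.3 to 43.2) for peaks in neither list. It was 66.7% at co-bound sites in that stratum (odds ratio 0.348, 0.171 to 0.706) and 86.3% at sites with ESC Oct1 alone. For the lowest 25% at gene ends it was 6.67%, against 10.6% in neither list (odds ratio 0.601, 0.141 to 2.57). Away from gene ends it was 2.36% against 10.7% for the lowest 25% (odds ratio 0.203, 0.0614 to 0.671). Above the lowest 25% there it was 11.8% against 42.3% (odds ratio 0.182, 0.0413 to 0.802).

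**Figure D3:**
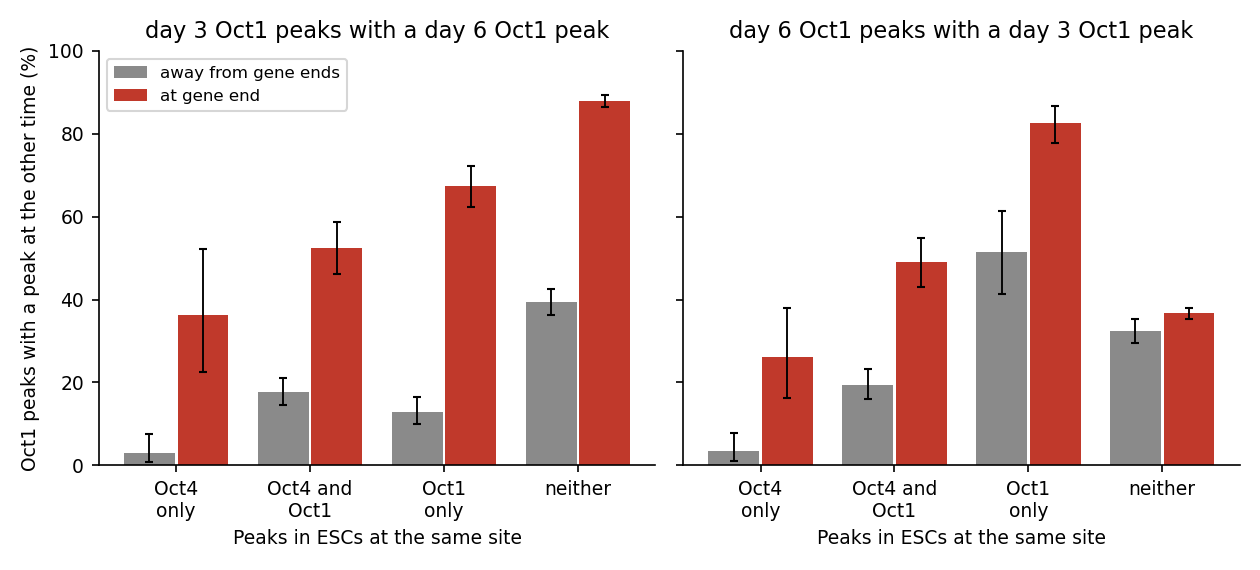
Share of day 3 Oct1 peaks that overlap a day 6 peak (left) and of day 6 Oct1 peaks that overlap a day 3 peak (right), by which factors had a peak there in ESCs and by position (gene end means within 1 kb). Bars are shares of peaks and lines are 95% exact binomial intervals. At Oct4-only sites away from gene ends, 2.99% of day 3 and 3.47% of day 6 peaks had a peak at the other time.

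Most of the 20 sites with Oct1 at both later times lay at promoters. Their midpoints were within 1 kb of a gene end in 16 cases and within 1 kb of an annotated start in 15. This was not particular to these sites. Of day 3 peaks with a day 6 peak, 1937 of 2297 in neither ESC list lay at a gene end. The counts were 241 of 295 at sites with ESC Oct1 alone and 138 of 232 at co-bound sites. The site with the highest day 6 score lay at Wbp2 (chr11:116086651-116087220), which encodes a WW-domain-binding coactivator, with its midpoint 60 bp inside the gene from an annotated start. Its scores were 413 for ESC Oct4, 202 at day 3 and 1902 at day 6, the last at percentile 95.7. At Cul3 (chr1:80340691-80341190), the scaffold of a family of ubiquitin ligases, Oct4 had score 122, day 3 Oct1 337 and day 6 Oct1 1566. The midpoint lay 250 bp outside the gene. Zbtb22 (chr17:33915791-33916510), a zinc finger gene, had scores of 142, 220 and 1272 in the same order, and Frmd6 (chr12:70824651-70825230), an upstream component of Hippo signalling, had 114, 426 and 1110. All 4 sites stood above percentile 80 of the day 6 list, while their Oct4 percentiles ranged from 32.8 at Frmd6 to 97.6 at Wbp2.

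At 8 of the 20 sites the percentile was higher at day 3 than at day 6, most of all at Hnrnpa2b1, Qrich1 and Kcnip1. Qrich1 (chr9:108516701-108517270) had Oct4 score 478, day 3 score 610 and day 6 score 376, at percentiles 98.6, 89.7 and 37.7 of their lists. Hnrnpa2b1 (chr6:51469821-51470370), which encodes an RNA-binding splicing factor, had scores of 417, 573 and 245, at percentiles 97.7, 88.4 and 24.2. Further sites lay at Supt5, a subunit of the elongation factor DSIF (197, 154 and 120), at Isy1, a spliceosome component (139, 63 and 965), and at Set, a histone chaperone (89, 196 and 262). The remaining gene-end sites were at Vps25, Mettl17, Mpst, Zfp91, Lin28a, Ube2j2 and Loxl3. Lin28a, which encodes an RNA-binding protein of pluripotent cells that blocks let-7 maturation, was the one gene among them from the pluripotency lists (chr4:134018961-134019600). Its midpoint was 84 bp outside the gene, with Oct4 score 343, day 3 score 122 and day 6 score 367. The 4 sites away from gene ends were inside Col18a1 and Kcnip1 and nearest to Slc52a3 and LOC108168956. Of these, Col18a1 and LOC108168956 were weak at both times, at percentiles of 16 or less.

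Among sites with Oct1 at day 3 only, the highest score (1150, percentile 96.1) was at a site in the histone H4 gene H4c9 (chr13:22040951-22041500), whose midpoint lay 137 bp from the gene's annotated start. The ESC Oct4 score there was 136. Histone genes are nearly identical copies in clusters, so reads can be hard to place among them. An ESC Oct1 peak was listed 1391 bp away. The next site, near Endov (chr11:119514261-119514850, day 3 score 1090), only just met the overlap rule, with 20 bp shared. Cpeb4 and Rhbdl3 followed with day 3 scores of 603 and 523, and the Rhbdl3 site was intragenic. A site inside Notch2 (chr3:98024261-98024780), a receptor of the Notch pathway, had Oct4 score 320 and day 3 score 337, at percentiles 94.3 and 73.5.

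The strongest sites with Oct1 at day 6 only included 2 neighbouring Oct4 peaks of chromosome 17 (chr17:13550721-13551620 and chr17:13551761-13553120). Their day 6 scores were 1707 and 1222, and their Oct4 scores 892 and 533. The day 6 peak at the first had the same borders as the Oct4 peak, and the placement of reads at this pair was not tested. The nearest protein-coding gene, Tcte2, ended 165266 and 163996 bp away, and the nearest annotated start, of 2700054A10Rik, 2924 and 1654 bp away. They were the only members within 10 kb of each other. At Polr2k (chr15:36173801-36174300), a subunit shared by the nuclear RNA polymerases, the day 6 score was 1142 and the Oct4 score 267. Kbtbd3 had a day 6 score of 995, and a site inside Mbd5 had 956, with its midpoint 54 bp from a start of Orc4, an origin recognition subunit. Duxf3 (chr10:58230981-58231910) had the highest Oct4 score of all 371 sites (1173, percentile 99.8) and a day 6 score of 936. Dux genes form arrays of nearly identical copies, where the placement of reads is uncertain.

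Pooled, the Oct4 peaks themselves ranked near other Oct4-only peaks, but the classes lay on either side. Their median percentile in the Oct4 list was 41.5 (36.1 to 46.1), against 39.4 (37.5 to 39.4) for the 11956 Oct4-only peaks without later Oct1 and 72.4 (69.9 to 75.1) for co-bound peaks with later Oct1. It was 32.8 (25.9 to 39.4) for sites with day 3 Oct1 only, 46.1 (41.5 to 52.7) with day 6 only and 49.2 (16.9 to 76.0) with both. Of Oct4-only peaks in the highest 25% of the Oct4 list, 3.82% (2.98 to 4.82) had a later Oct1 peak, against 3.02% in the middle 50% and 2.65% (2.19 to 3.18) in the lowest 25%. The highest Oct4 scores after Duxf3 were 1033 in Celsr3, a cadherin of planar polarity (chr9:108826621-108827330), and 1003 in Prr5l (chr2:101722851-101723350). Then came the first of the chromosome 17 pair, and a site 7397 bp from Gsx2, a neural homeobox gene (Oct4 score 599). Celsr3 and Prr5l had middling day 3 peaks (282 and 242, percentiles 66.6 and 59.7), and Gsx2 a weak one (91, percentile 20.3).

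Relative to genes, 94 of the 371 sites (25.3%, 21.0 to 30.1) had their midpoint within 1 kb of an annotated gene end. This was 13.3% (12.7 to 13.9) for Oct4-only peaks without later Oct1, an odds ratio of 2.22 (1.75 to 2.82). Among co-bound ESC peaks with later Oct1 it was 30.4% (27.9 to 32.9), an odds ratio of 0.778 (0.599 to 1.01) for the sites against them. The choice used these later lists, which lie at gene ends in 58.9% (day 3) and 76.4% (day 6) of cases. Weak later peaks do so less often. In the lowest 10% of day 6 peaks, 34.2% lay at a gene end, and in the lowest 10% of day 3 peaks 24.0%. By class, the share was 17.7% (12.1 to 24.6) for day 3 only, 25.9% (19.9 to 32.7) for day 6 only and 80.0% (56.3 to 94.3) for both. For the day 3 class the interval of the odds ratio against Oct4-only peaks without later Oct1 included 1 (1.41, 0.934 to 2.13). Measured by annotated starts alone, the odds ratio for all sites was 4.41 (3.31 to 5.88), and with a window of 5 kb it was 1.28 (1.04 to 1.58). When only the stronger 50% of each later list was used, 42 sites remained and 61.9% of them lay at a gene end.

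Of Oct4-only peaks at a gene end, 5.6% (4.55 to 6.81) had a later Oct1 peak, against 2.6% (2.31 to 2.92) of those elsewhere. For day 3 alone the shares were 2.62% and 1.26%, and for day 6 alone 3.93% and 1.38%. At day 6, sites at gene ends also had stronger Oct1 peaks, with a median percentile of 29.4 (22.1 to 37.7) against 6.70 (5.08 to 7.48) for the 147 other sites. At day 3 the medians were 22.2 (15.6 to 32.2) and 17 (14.7 to 19.7). In the whole lists the corresponding medians were 56.2 and 24.9 at day 6, and 60.7 and 29.9 at day 3. Both kinds of site thus ranked below the usual peak at their position. A protein-coding gene contained 213 of the 371 midpoints (57.4%); exons were not annotated in the gene table.

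At promoters, the sites had more CpG dinucleotides than other Oct4-only peaks, at a similar GC content. In all, 37 sites covered at least 50% of a promoter window, which gave 54 windows of 46 genes. The windows held a median of 15 CpG dinucleotides (quartiles 11 and 17.75), against 5 (3 and 7) in 232 windows covered by Oct4-only peaks without later Oct1. Median GC content was 58.6% and 56.8% in these sets, and 65.6% and 65.2% at all day 3 and all day 6 Oct1 peaks. The median CpG count was 6 over all 32851 windows and 21 in the windows covered by all day 3 or all day 6 Oct1 peaks. It was 13.5 in 36 windows with day 6 Oct1 only, 21 in 15 windows with both, and 3 in 3 windows with day 3 only (H4c9, Gm12298 and Olfr15). Windows of 1 gene can overlap, so they are not independent. Starts on both strands were covered by 7 of the 37 sites (18.9%), against 9 of 202 (4.46%) for Oct4-only peaks without later Oct1, 18.5% of day 3 and 19.2% of day 6 peaks. Hadha and Hadhb, which encode the subunits of the mitochondrial trifunctional protein, shared one such site, and Elmod3 and Retsat another.

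**Figure D4:**
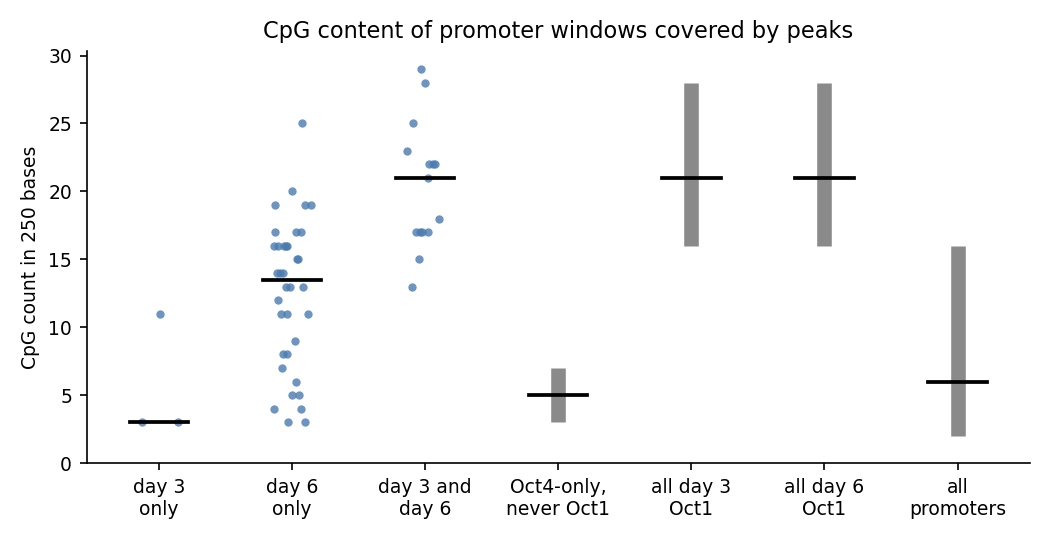
CpG dinucleotides in the 250 bases before annotated starts, for windows covered for at least 50% by a peak. Points are single windows at the sites, by the time of the later Oct1 peak, with medians as black bars. Grey bars span the quartiles for the comparison sets. Windows with Oct1 at both later times had a median of 21 and those of Oct4-only peaks without later Oct1 a median of 5.

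No octamer (ATGCAAAT) was found on either strand in the 54 windows, nor in the 232 windows of Oct4-only peaks without later Oct1. It occurred in 1.60% of all windows, 3.64% of windows at day 3 peaks and 1.36% at day 6 peaks. The form ATGCNAAT, which includes the octamer, was likewise absent from the 54 windows and present in 2.86% of all. Also absent were the palindromic MORE element (0.00913% of all), the composite of CATTGT, 1 free base and the octamer (in no window) and the Smad palindrome GTCTAGAC (0.167% of all). For 0 of 54 windows the exact interval reaches 6.60%. The intervals of this paragraph treat windows as independent. The 54 came from 37 sites and some overlap, so these intervals are too narrow. No match says only that these letters are not in these windows, and most sites lie away from promoters, where no sequence was read. The SP box GGGCGG was present in 22 windows (40.7%, 27.6 to 55.0), against 78.8% of windows at day 3 peaks, 77.3% at day 6 peaks, 23.7% of Oct4-only windows without later Oct1 and 32.7% of all. CCAAT was found in 29.6%, against 26.7% of Oct4-only windows without later Oct1, 38.8% at day 3 peaks, 36.3% at day 6 peaks and 33.8% of all. CATTGT, a Sox element, was in 3.70%, against 7.76%, 4.70%, 4.45% and 10.7% in the same order. CAGAC, the core letters of many Smad sites, were in 55.6%, close to the 53.9% of Oct4-only windows without later Oct1 (36.0% at day 3 peaks, 37.3% at day 6 peaks, 42.2% of all). GGCGCC, a GC-rich Smad element, was in 9.26%, against 4.31% of Oct4-only windows without later Oct1, 21.2% at day 3 peaks, 23.1% at day 6 peaks and 9.59% of all. CCGGAAGT, an ETS element, was in 7.41%, against 1.29%, 4.73%, 6.66% and 2.88% in the same order. AAGATGGC, a YY1 element, was in 5.56%, against 2.59% of Oct4-only windows without later Oct1, 2.38% at day 3 peaks, 2.48% at day 6 peaks and 1.56% of all. An NRF1 element was in 1 window (1.85%, 0.0469 to 9.89), against 0.431% of Oct4-only windows without later Oct1 and 0.782% of all, and 3.03% at day 3 and 2.70% at day 6 peaks. The CG-bearing palindrome, TCTCG followed by its reverse complement, was added to the search after the sequences had been seen. It was present in 5 windows (9.26%, 3.08 to 20.3) of 4 sites, those of Cul3 with its divergent partner Gm39667, Qrich1, Supt5 and Rpl26, against 0 of 232 Oct4-only windows without later Oct1, and 1.53%, 1.14% and 0.390% in windows at day 3 peaks, at day 6 peaks and in all.

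Each site was assigned to its nearest protein-coding gene, which gave 350 genes, or 1.60% of 21883. Gene lists for the tissue were then compared with these, by count and without a test. Of 31 genes of TGF-beta, BMP and Smad signalling, 5 were nearest to a site (16.1%), and 16 were nearest to an Oct4-only peak without later Oct1. Only the site of Tgif1 lay within 1 kb of a start of its gene (chr17:70851501-70852070, 51 bp), with Oct4 score 154 and day 6 score 223. The other 4 lay between 6221 and 231207 bp from the gene. They were nearest to Nog, a BMP antagonist (day 3 score 100), Smad6, an inhibitory Smad (day 3 score 88), Bmp7, a BMP ligand (day 6 score 44), and Smad2, which transmits TGF-beta and Nodal signals (day 6 score 106). All 5 later peaks stood at percentiles of 24.0 or less.

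Among mesodermal genes, Snai1 and Wnt3 of the primitive streak list (2 of 16) were nearest to a site, as were Pax7 of the somite list (1 of 16) and Isl1 of the cardiac and vascular list (1 of 16). Snai1, a repressor that drives epithelial-mesenchymal transition, had a site with its midpoint 1511 bp from the gene and 6130 bp from its nearest annotated start. The day 6 peak there (score 115, percentile 9.42) shared only 50 bp with the Oct4 peak. Wnt3, the ligand needed for the primitive streak, had an intragenic site (day 3 score 65, percentile 9.54). Pax7, a regulator of muscle progenitors, had an intragenic site with a day 3 score of 91 at percentile 20.3. Isl1, a factor of cardiac progenitors, had a site with its midpoint 1025 bp from the gene and 12443 bp from its nearest annotated start. The day 6 score there was 83, at percentile 4.73. None of the 16 naive pluripotency, 15 neural, 21 FGF, 13 POU or 39 Hox genes was nearest to a site. Of these lists, 8, 5, 9, 6 and 7 genes were nearest to an Oct4-only peak without later Oct1, as were 5969 of all 21883 genes. With 1.60% of all genes nearest to a site, a count of 0 in lists of this size is no result about them.

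In the remaining lists, Wnt signalling had 2 of 30 genes (Fzd2 and Tcf7l2), Notch 1 of 18 (Notch2), and Sox factors 2 of 16 (Sox5 and Sox13). The share over all genes was 1.60%, and counts this small are no result about the lists. Oct4-only peaks without later Oct1 were nearest to 13 Wnt, 10 Notch, 9 Sox, 11 Polycomb and trithorax and 16 ribosomal protein genes. Polycomb and trithorax had 3 of 34. Within these 3, Kdm6b, a demethylase of histone H3 lysine 27, had an intragenic site with a day 6 peak of middling strength (score 462, percentile 45.8), while Cbx2 and Phf19 had weak peaks (percentiles 8.43 and 2.83). Ribosomal protein genes had 2 of 79 (2.53%), near the share over all genes. Of these 2, Rpl26 had a site with its midpoint 351 bp outside the gene (day 6 score 404, Oct4 score 193). Rps24 was only the nearest gene, at 310385 bp. Over all lists together 21 of 434 matched genes (4.84%) were nearest to a site, against 1.60% of all genes. Oct4-only peaks without later Oct1 were nearest to 132 of the 434, against 5969 of all 21883. The width of gene flanks, which can bear on which gene is nearest to a distal site, was not tested.

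Chromosome 11 held 58 of the 371 sites (15.6%, 12.1 to 19.7), against 10.5% (9.94 to 11.1) of Oct4-only peaks without later Oct1 (odds ratio 1.58, 1.19 to 2.11). The share was as high or higher among co-bound ESC Oct4 peaks, at 19.6% (17.5 to 21.8) with later Oct1 and 15.7% (14.9 to 16.4) without. The chromosome held 13.7% of all day 3 and 10.5% of all day 6 Oct1 peaks. The median gap from a site to the nearest ESC Oct1 peak was 15921 bp (13001 to 17761), against 12471 bp (12101 to 12991) for Oct4-only peaks without later Oct1. An ESC Oct1 peak lay within 1 kb of 25 sites (6.74%), against 8.45% of those peaks. At the edge of the rule, the shared stretch was 10 bp at the narrowest and under 100 bp at 7 sites (median 530 bp). Just outside it, 5 Oct4-only peaks had a later Oct1 peak closer than 100 bp without overlap.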

How the data were processed

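The members and gene lists were chosen with earlier results of these data known. The deposited lists hold 5 columns per peak, the last a score with no stated unit given by the authors, which was used only as a rank within its list. Chromatin was crosslinked with 1% formaldehyde and sequenced as paired 50 bp reads with a stated 100 M read pairs, per the labels' protocols; depth cannot be read from the lists. Novoalign 3.8.2 and build mm10 (GRCm38) are named in the submitters' processing notes; the peak caller, threshold and control are not given in the sources used here. Each list belongs to 1 library. The 3 inputs and the other arms of the series were not analysed here.

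Coordinates are 1-based. Percentiles rank the score within a list. Overlaps were counted with pandas 2.3.3 and numpy 2.4.6, intervals with scipy 1.17.1 and figures with matplotlib 3.10.9, under Python 3.11.15, by functions tested on simulated data. Later peaks were grouped by the ESC peaks they touched; 2 at day 3 and 5 at day 6, which touched a co-bound Oct4 peak but no Oct1 peak, were in no group. Shares carry Clopper-Pearson 95% intervals, medians order-statistic intervals and odds ratios log-scale intervals. Genes and promoters came from RefSeq tables of GRCm38.p6, without promoters of chromosome 18 (6 sites). Of 80 histone symbols, 58 were matched; every symbol of the other 15 lists was matched. Named sites were those with Oct1 at both times, the leading ones by day 3, day 6 or Oct4 score, and those in the gene lists.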

Additional observations from a re-analysis of the deposited data

How the results depend on the processing

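No paired analysis was possible because each group has 1 library. Of 56 alternative values for 10 results, 37 stayed within the interval of the reported value (or 1.5 times for the count), 19 moved and 0 reversed. Only the odds ratio had a direction that could reverse, since the other results were counts, shares and medians. Alternatives for the share of day 3 peaks followed at day 6 and for CpG counts were added after the data were seen; the cause of the changes was not tested unless fewer peaks entered by construction.

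With only the stronger 50% of both later lists, 42 sites remained, 0.341% of Oct4-only peaks. Of these, 11.9% had Oct1 at both times and 61.9% lay at a gene end (odds ratio 10.5), with median percentiles of 73.5 at day 3, 64.0 at day 6 and 63.1 for Oct4, and 26.3% of their day 3 peaks had a day 6 peak. With only the stronger 50% of Oct4 peaks, 147 sites remained, at median percentiles of 72.9 for Oct4 and 23.1 at day 3. Each filter places the percentiles of the list it cuts above 50 by construction, so the values of 73.5, 64.0 and 72.9 moved for that reason. With the midpoint rule of overlap, sites made up 2.67% of Oct4-only peaks. The share at gene ends was 45.8% within 5 kb (odds ratio 1.28), 19.1% for ends of protein-coding genes (3.25) and 17% for annotated starts (4.41). Unknown depth and threshold limit every statement about absent peaks.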

Other observations

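Several genes were nearest to more than 1 site. Septin9, which encodes a cytoskeletal septin, was nearest to 4, Kcnip1, Mad1l1 and Sdk2 to 3 each, and 12 further genes to 2 each. The Septin9 sites were 3 with day 3 Oct1 (scores 69, 93 and 103) and 1 with day 6 Oct1 (score 96), of which 1 lay inside the gene, and ESC Oct1 peaks without overlap lay 581 to 4531 bp from them. Both sites of Gli2, a transcription factor of Hedgehog signalling, were day 6 sites (scores 135 and 122, percentiles 11.9 and 10.2). A site inside Smo, the Hedgehog signal transducer, had Oct4 score 445 and day 6 score 490 (percentiles 98.2 and 48.2).

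A short overlap did not always go with a low score. The Slc6a3 site shared 10 bp with a day 3 peak in the lower part of its list (score 124, percentile 32.2). The Psmb10 site, however, shared 40 bp with a day 6 peak of score 654 (percentile 60.8). These sites, those of Gli2 and Smo, and the one near Endov were singled out after their values were seen.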
